A study of Mus musculus with 3 samples.

Results

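Transcripts of 10 genes, p53 targets and cell cycle inhibitors, were followed in 3 libraries of mouse pancreatic islet RNA. The genes were chosen by name, with earlier results of these data known. They are the cyclin-dependent kinase inhibitors Cdkn1a, Cdkn1b and Cdkn2a and the p53 feedback and stress genes Mdm2, Ccng1, Trp53inp1 and Phlda3. The others are the cell death genes Bbc3 and Bax and the DNA damage gene Gadd45a. All 10 had a row in each full table, out of 24119 gene IDs in all. The libraries came from male C57BL/6 mice and stand for 3 groups with 1 library each. HFD_CGP mice were on a high-fat diet and received CGP 57380, an inhibitor of the MNK kinases, by oral gavage. HFD_DMSO mice were on the same kind of diet and received DMSO, the solvent control. ND mice were on the diet labelled ND and also received DMSO. Gavage lasted 1 month, and the labels add "4 month" without saying whether this is an age or a time on the diet. How many animals went into a library is not given in the sources used here.

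p53 is a transcription factor that is held low in unstressed cells because Mdm2, the product of one of its own target genes, marks it for destruction. When DNA damage or another stress frees it, it switches on genes that stop the cell cycle, above all Cdkn1a, and genes that start cell death from the mitochondrion, such as Bbc3 and Bax. Kinase inhibitors of the Cdkn1 and Cdkn2 families set how readily beta cells divide, and in rodents Cdkn1b and Cdkn2a are known brakes on beta-cell replication.

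The libraries held 17623834 (HFD_CGP), 16297626 (HFD_DMSO) and 17129054 (ND) reads assigned to genes, of which Ins1 and Ins2 took 19.1%, 43.5% and 15.3%. Levels below are reads per 1000000 of the effective library, which is the read total multiplied by its TMM factor, so that the insulin reads of HFD_DMSO do not push down all other genes. TMM factors were computed over the 3 libraries together for levels, and for each pair alone for fold changes. Ratios of printed levels therefore differ somewhat from the fold changes. All 10 beta-cell markers checked were detected in every library. Markers of cells outside the islet's endocrine types differed between libraries: the summed level of 14 acinar markers was 160, 5614 and 14939 in HFD_CGP, HFD_DMSO and ND, that of 8 duct markers 454, 820 and 397, that of 10 stellate and fibroblast markers 264, 642 and 177, that of 8 endothelial markers 672, 607 and 281, that of 9 macrophage markers 269, 371 and 185, and that of 8 lymphocyte markers 8.03, 23.0 and 21.9. The 5 alpha and delta cell markers summed to 11773, 7022 and 22714 in the same libraries, with 3 called lower in HFD_DMSO vs ND, and of the 10 beta-cell markers 2 were called higher and 3 lower in that pair. In it 12.6% of all genes were called higher and 13.2% lower. The lymphocyte marker Ms4a1 had 0 reads in ND; every other marker had reads in all 3 libraries. The ND library also stood apart by base composition. Across genes whose higher library held 100 or more normalized counts, the median log2 fold change of HFD_DMSO over ND was -1.12 in the tenth of genes with the lowest transcript GC content and 0.88 in the tenth with the highest, and that of HFD_CGP over ND was -0.81 and 0.90. HFD_CGP over HFD_DMSO spanned only 0.20 and -0.08. A correction that subtracts the median of a gene's GC bin is therefore given beside the members' results against ND.

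Since every group has 1 library, no difference could be checked against replicates, and a test between a pair of libraries says nothing of the spread between mice. "Rose", "fell" and "called" are used of genes with an adjusted p below 0.05, taken from the authors' deposited table; where "called" is used of another scaling, spread or correction, the adjusted p is that of the recomputed edgeR test. The deposited p-values match a test with an assumed coefficient of variation of 0.2. Shares of all genes called are those of the deposited calls. No such share was computed for another scaling, spread or correction, or for unadjusted p. Intervals given with levels and fold changes are 95% intervals for counting error only. In whole islets, fewer cells of a type and less RNA per cell cannot be told apart. Coordinates are on GRCm38.

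Cdkn1a rose in both high-fat libraries against ND and was called there with and without the GC correction. The gene encodes p21, which blocks cyclin-dependent kinases and is the classic p53 target (ENSMUSG00000023067, chromosome 17, 29090979 to 29100722, plus strand). It had 1886 reads in HFD_CGP, 869 in HFD_DMSO and 351 in ND, or levels of 93.4 (interval 89.3 to 97.7), 68.8 (64.3 to 73.5) and 18.2 (16.3 to 20.2). Both high-fat libraries lay far above ND, and none of the 3 counting intervals overlapped. Cdkn1a rose 3.78-fold in HFD_DMSO over ND, a log2 fold change of 1.92 (1.74 to 2.10) with an adjusted p of 0.000169 in the authors' deposited table. It rose 5.13-fold in HFD_CGP over ND, a log2 fold change of 2.36 (2.20 to 2.53) with an adjusted p of 1.29e-05 in that table. HFD_CGP over HFD_DMSO stood at 0.35 (0.24 to 0.47) and did not pass. With the GC correction Cdkn1a was still called higher against ND in both pairs, at 1.47 in HFD_DMSO and 1.81 in HFD_CGP. Its exons share 273 bases with AC167363.2 on the other strand, and whether strand was used in counting is not given in the sources used here.

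The promoter windows of RefSeq (GRCm38.p6, 250 bases before to 50 after a start) show where letters of a p53 response element lie near the members' starts. The element is 2 copies of a 10-base unit, searched here side by side with no gap, with the 4 core bases of each copy intact (C, then A or T in both middle positions, then G) and up to 3 mismatches among the other 12 bases; it reads the same on both strands. Windows were found for 9 members, 13 in all, while Trp53inp1 had none. The element was found in 2 of these 13 windows, 1 of the 2 of Cdkn1a and 1 of the 3 of Bbc3, and in 0.572% of all 32851 windows. These 2 windows are shown, with the single ones of Phlda3, which also rose against ND, and of Ccng1, a p53 target that did not rise. The Phlda3 window ends in gaacatgt, which matches the start of such a unit with its core intact. Bases past the window's edge were not searched, so this match could not be scored. Capitals mark the full element in Cdkn1a and Bbc3 and a single exact copy of the 10-base unit in Ccng1.
Cdkn1a, chr17:29090729-29091028, plus strand: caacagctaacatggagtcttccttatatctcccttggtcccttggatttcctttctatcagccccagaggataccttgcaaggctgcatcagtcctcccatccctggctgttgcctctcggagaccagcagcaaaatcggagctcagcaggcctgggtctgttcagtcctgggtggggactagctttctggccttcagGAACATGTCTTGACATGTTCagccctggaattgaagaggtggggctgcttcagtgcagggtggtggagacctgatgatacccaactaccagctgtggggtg
Bbc3, chr7:16309333-16309632, plus strand: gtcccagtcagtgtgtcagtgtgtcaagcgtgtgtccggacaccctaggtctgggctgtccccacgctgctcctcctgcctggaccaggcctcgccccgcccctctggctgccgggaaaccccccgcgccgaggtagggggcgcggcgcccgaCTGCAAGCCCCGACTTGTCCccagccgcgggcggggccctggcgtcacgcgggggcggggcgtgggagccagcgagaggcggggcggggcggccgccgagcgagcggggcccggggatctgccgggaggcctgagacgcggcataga
Phlda3, chr1:135765835-135766134, plus strand: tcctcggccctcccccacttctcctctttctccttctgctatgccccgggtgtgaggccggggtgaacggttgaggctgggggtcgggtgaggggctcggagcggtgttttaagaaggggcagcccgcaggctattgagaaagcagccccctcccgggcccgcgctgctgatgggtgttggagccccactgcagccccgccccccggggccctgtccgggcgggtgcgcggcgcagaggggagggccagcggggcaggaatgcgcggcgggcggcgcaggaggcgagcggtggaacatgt
Ccng1, chr11:40755237-40755536, minus strand: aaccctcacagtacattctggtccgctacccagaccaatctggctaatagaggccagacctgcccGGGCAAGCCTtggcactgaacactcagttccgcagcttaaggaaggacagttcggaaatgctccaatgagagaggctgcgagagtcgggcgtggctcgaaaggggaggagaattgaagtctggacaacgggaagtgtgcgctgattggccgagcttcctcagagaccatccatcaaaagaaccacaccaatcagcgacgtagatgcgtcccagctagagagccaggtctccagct
The Cdkn1a element, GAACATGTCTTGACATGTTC, starts 51 bases before the upstream of its 2 annotated starts and has 1 mismatch; at most 1 mismatch was found in 0.055% of windows. The Bbc3 element, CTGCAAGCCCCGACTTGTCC, starts 97 bases before a start and has 3 mismatches. At least 1 exact unit was found in 8.36% of all windows and in 5 of the 13, each of another member. The Cdkn1a window shown holds 2 exact units, and capitals there mark only the full element. These matches describe letters and are not binding measurements.

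**Figure D1:**
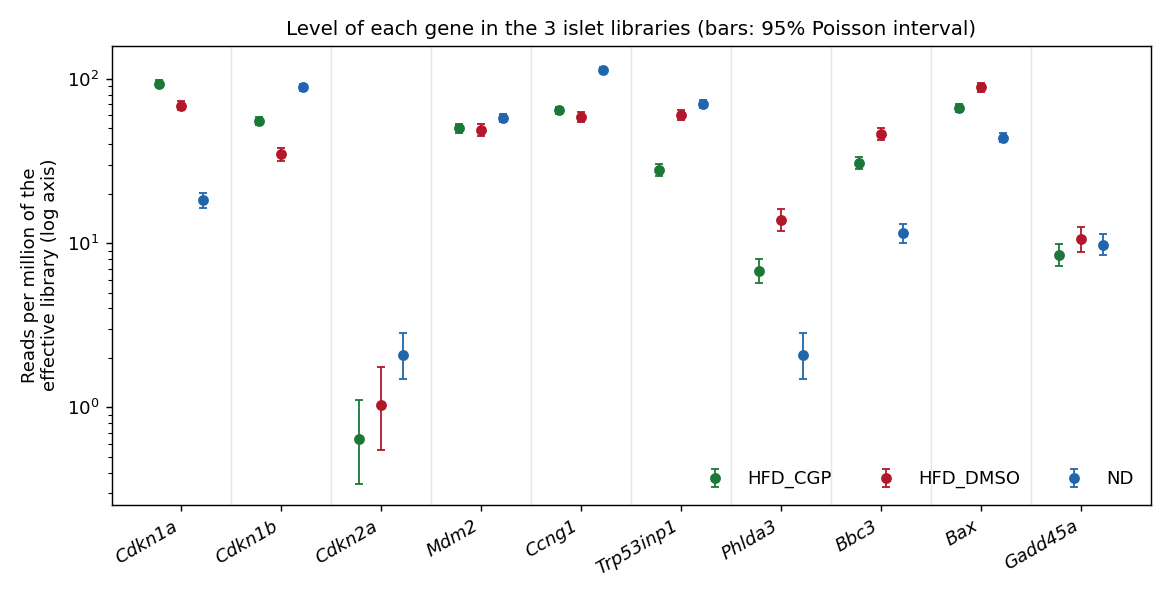
Level of each of the 10 genes (reads per 1000000 of the effective library, log axis) in the HFD_CGP, HFD_DMSO and ND libraries; points are single libraries and bars are 95% Poisson intervals. The points of Cdkn1a, Phlda3, Bbc3 and Bax lie above ND in both high-fat libraries. Those of Cdkn1b, Cdkn2a, Mdm2, Ccng1 and Trp53inp1 lie below it in both, and Gadd45a lies above ND in HFD_DMSO and below it in HFD_CGP.

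Cdkn1b, unlike its relative Cdkn1a, was lower in the high-fat libraries than in ND, and fell in HFD_DMSO. It encodes p27, a kinase inhibitor of the same family and a brake on beta-cell replication (ENSMUSG00000003031, chromosome 6, 134920401 to 134925513, plus strand). Its level was 55.2 in HFD_CGP (1114 reads), 34.7 in HFD_DMSO (438 reads) and 88.8 in ND (1713 reads). ND was highest and HFD_DMSO lowest, and the counting intervals of the 3 libraries did not overlap. Cdkn1b fell in HFD_DMSO against ND, with a log2 fold change of -1.36 (-1.51 to -1.20) and an adjusted p of 0.0089 in the authors' deposited table. HFD_CGP over ND stood at -0.69 (-0.80 to -0.58) and HFD_CGP over HFD_DMSO at 0.58 (0.42 to 0.74), and neither passed. With the GC correction the fold changes against ND were -0.41 in HFD_DMSO and -0.03 in HFD_CGP, and the call was lost.

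Cdkn2a was scarce. The locus encodes the kinase inhibitor p16INK4a and, from another reading frame, the Mdm2 antagonist ARF, and its reads sum over both (ENSMUSG00000044303, chromosome 4, 89274471 to 89294653, minus strand). It had 13 reads in HFD_CGP, 13 in HFD_DMSO and 40 in ND, or levels of 0.64 (0.34 to 1.1), 1.03 (0.55 to 1.76) and 2.07 (1.48 to 2.82). The interval of ND overlapped that of HFD_DMSO and not that of HFD_CGP. No comparison passed: HFD_DMSO over ND stood at -1.01 (-2.04 to -0.08), HFD_CGP over ND at -1.68 (-2.71 to -0.75) and HFD_CGP over HFD_DMSO at -0.76 (-1.99 to 0.46). Cdkn2a is GC-rich, so the GC correction moved it down, to -1.89 in HFD_DMSO and -2.58 in HFD_CGP against ND, and it was then called lower in both. In HFD_CGP against ND the likelihood ratio test behind the correction already called it lower without the correction. Both high-fat libraries rest on 13 reads.

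Mdm2 and Ccng1 act back on p53 and are induced by it. Mdm2 is the ubiquitin ligase that destroys p53 (ENSMUSG00000020184, chromosome 10, 117688875 to 117710758, minus strand). Its libraries lay close together, with levels of 49.9 in HFD_CGP (1007 reads), 48.8 in HFD_DMSO (617 reads) and 57.6 in ND (1112 reads). The intervals of HFD_CGP (46.9 to 53.1) and HFD_DMSO (45.1 to 52.8) overlapped almost entirely. Its log2 fold changes were -0.24 (-0.38 to -0.10) in HFD_DMSO over ND, -0.06 (-0.21 to 0.09) in HFD_CGP over HFD_DMSO and -0.21 (-0.33 to -0.08) in HFD_CGP over ND, and none passed. Its GC-corrected values against ND had the other sign, 0.33 in HFD_DMSO and 0.06 in HFD_CGP. Ccng1 encodes cyclin G1, which brings a phosphatase to Mdm2 (ENSMUSG00000020326, chromosome 11, 40748552 to 40755311, minus strand). Its level was 64.3 in HFD_CGP (1297 reads), 58.4 in HFD_DMSO (738 reads) and 113.6 in ND (2191 reads). Both high-fat libraries were below ND by similar amounts, with log2 fold changes of -0.96 (-1.08 to -0.84) in HFD_DMSO and -0.82 (-0.92 to -0.72) in HFD_CGP. Neither passed, with adjusted p of 0.0762 in HFD_DMSO and 0.209 in HFD_CGP in the authors' deposited table, and the GC-corrected values were 0.16 in HFD_DMSO and -0.01 in HFD_CGP.

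Trp53inp1 fell in HFD_CGP against ND, a call that was lost with the GC correction. It encodes a stress-induced nuclear protein that acts in cell death and autophagy (ENSMUSG00000028211, chromosome 4, 11156431 to 11174379, plus strand). Its level was 27.9 in HFD_CGP (564 reads), 60.0 in HFD_DMSO (758 reads) and 70.3 in ND (1357 reads). HFD_CGP was lowest, and its interval of 25.7 to 30.3 lay clear of the others. The fall in HFD_CGP against ND had a log2 fold change of -1.33 (-1.48 to -1.19) and an adjusted p of 0.0257 in the authors' deposited table. HFD_CGP over HFD_DMSO stood at -1.19 (-1.35 to -1.03) and did not pass, with an adjusted p of 0.0667 in that table, while HFD_DMSO over ND stood at -0.23 (-0.36 to -0.10). Trp53inp1 has the lowest transcript GC content of the members, 38.8%. After the GC correction HFD_CGP over ND was -0.52 and not called, HFD_DMSO over ND was 0.89, of the other sign and not called, and HFD_CGP over HFD_DMSO was -1.39 and called lower.

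Phlda3 had the largest fold change of the members in HFD_DMSO over ND. It encodes a small lipid-binding protein, induced by p53, that keeps the kinase Akt from the membrane and is known as a tumour suppressor in pancreatic neuroendocrine cells (ENSMUSG00000041801, chromosome 1, 135766119 to 135769136, plus strand). It had 137 reads in HFD_CGP, 175 in HFD_DMSO and 40 in ND, or levels of 6.79 (5.70 to 8.02), 13.9 (11.9 to 16.1) and 2.07 (1.48 to 2.82). HFD_DMSO was highest and ND lowest, and none of the intervals overlapped. Phlda3 rose 6.66-fold in HFD_DMSO over ND, a log2 fold change of 2.74 (2.24 to 3.27) with an adjusted p of 1.43e-06 in the authors' deposited table. It rose 3.27-fold in HFD_CGP over ND, at 1.71 (1.19 to 2.26) with an adjusted p of 0.0119 in that table. HFD_CGP over HFD_DMSO stood at -1.12 (-1.45 to -0.79) and did not pass, with an adjusted p of 0.13 in the same table. Corrected for GC content, the fold change in HFD_DMSO over ND was 1.86 and still called, and that in HFD_CGP over ND was 0.80 and not called.

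Both cell death genes were highest in HFD_DMSO and lowest in ND, and Bbc3 passed against ND where Bax did not. Bbc3 encodes PUMA, a BH3-only protein that disarms the BCL2 survival proteins (ENSMUSG00000002083, chromosome 7, 16308393 to 16318205, plus strand). Its level was 30.8 in HFD_CGP (622 reads), 46.3 in HFD_DMSO (585 reads) and 11.5 in ND (222 reads). It followed the order of Phlda3, with HFD_DMSO highest and ND lowest. Bbc3 rose 4.02-fold in HFD_DMSO over ND, a log2 fold change of 2.01 (1.78 to 2.24) with an adjusted p of 9.72e-05 in the authors' deposited table. It rose 2.68-fold in HFD_CGP over ND, at 1.42 (1.20 to 1.65) with an adjusted p of 0.0188 in that table. HFD_CGP over HFD_DMSO stood at -0.68 (-0.84 to -0.51) and missed the threshold. The GC-corrected values against ND were 1.13 in HFD_DMSO, still called, and 0.52 in HFD_CGP, not called. Bax forms the pore in the outer mitochondrial membrane through which cell death proceeds (ENSMUSG00000003873, chromosome 7, 45461697 to 45466898, minus strand). Its level was 66.3 in HFD_CGP (1338 reads), 88.7 in HFD_DMSO (1121 reads) and 43.9 in ND (847 reads). The order was again that of Phlda3 and Bbc3, with smaller differences. Its log2 fold change was 1.01 (0.88 to 1.15) in HFD_DMSO over ND, short of the threshold with an adjusted p of 0.0585 in the authors' deposited table. It was called higher there with p adjusted over genes with at least 10 reads, with library totals without Ins1 and Ins2, and with an assumed coefficient of variation of 0.1. HFD_CGP over ND stood at 0.59 (0.47 to 0.72) and HFD_CGP over HFD_DMSO at -0.51 (-0.63 to -0.39), and after the GC correction the values against ND were 0.13 in HFD_DMSO and -0.31 in HFD_CGP. The exons of Bax share 192 bases with Gm45808 on the same strand.

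Gadd45a, a growth arrest and DNA damage gene (ENSMUSG00000036390, chromosome 6, 67035096 to 67037457, minus strand), was close in the 3 libraries. It had 171 reads in HFD_CGP, 134 in HFD_DMSO and 189 in ND, or levels of 8.47 (7.25 to 9.84), 10.6 (8.89 to 12.6) and 9.80 (8.45 to 11.3). All 3 intervals overlapped, and the log2 fold changes were 0.11 (-0.22 to 0.44) in HFD_DMSO over ND, -0.41 (-0.75 to -0.08) in HFD_CGP over HFD_DMSO and -0.21 (-0.52 to 0.10) in HFD_CGP over ND; none passed. Its GC-corrected values against ND were 0.18 in HFD_DMSO and -0.31 in HFD_CGP. Its exons share 337 bases with E230016M11Rik on the other strand, which had 60, 20 and 54 reads in HFD_CGP, HFD_DMSO and ND.

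Set per kilobase of gene length, so that genes of unlike length can be compared, the members ranked differently in the 3 libraries. These ranks carry no GC correction, and fold changes against ND ran with transcript GC content across genes. Ccng1 (40.8%) and Cdkn1b (43.1%) are low in GC and Bax (63.5%) is high. The part of GC content in the ranks was not tested. In HFD_CGP, Bax and Cdkn1a led with 42.1 and 42.0 reads per 1000000 per kilobase and could not be told apart by counting error. In HFD_DMSO, Bax led with 56.3 and Cdkn1a followed with 30.9. In ND, Ccng1 led with 32.3, Bax followed with 27.9 and Cdkn1b came next with 19.5, while Cdkn1a stood 6th with 8.18. Cdkn2a was last in both high-fat libraries, with 0.55 in HFD_CGP and 0.88 in HFD_DMSO. In ND it had 1.77 and Phlda3 was last with 1.33, with intervals that overlapped. Other neighbours whose counting intervals overlapped were Gadd45a, Phlda3 and Trp53inp1 in HFD_CGP, the run from Mdm2 over Trp53inp1, Phlda3 and Cdkn1b to Gadd45a in HFD_DMSO, and Mdm2 with Trp53inp1 and Gadd45a with Bbc3 in ND.

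HFD_DMSO vs ND compares the diets under the same solvent. Phlda3, Bbc3 and Cdkn1a rose and Cdkn1b fell, and the other 6 members did not pass. The authors' deposited table called 12.6% of all genes higher and 13.2% lower, and 14.8% and 19.3% of those whose higher library held 100 or more normalized counts, a level that 9 of the 10 members reached. The median log2 fold change of the 10 members was -0.06, against -0.12 for all genes tested, and 5 members were above 0 and 5 below. Within the tenth of genes highest in GC content, which holds Phlda3, Bbc3, Bax and Cdkn2a, 40.3% were called higher and 1.51% lower. Within the tenth that holds Cdkn1a, 22% were called higher, and within that of Cdkn1b 43.8% were called lower. With an assumed coefficient of variation of 0.4 in place of 0.2, 0 members were called in either direction. Scaling by library totals moved all log2 fold changes of this pair by -0.54, and Cdkn2a (-1.54) and Ccng1 (-1.50) were then called lower besides Cdkn1b (-1.90). Of the markers, 9 of 14 acinar ones were called lower and 1 higher in this pair, while 8 of 10 stellate and fibroblast, 5 of 8 duct, 4 of 9 macrophage and 3 of 8 endothelial ones were called higher, as were 5 of 8 lymphocyte ones with 1 lower. Their part in these values was not tested.

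HFD_CGP vs HFD_DMSO compares inhibitor and solvent on the high-fat diet. None of the 10 members passed, where 1.4% of all genes were called higher and 4.95% lower (1.44% and 4.16% of those whose higher library held 100 or more normalized counts). At an unadjusted p under 0.05 in the authors' deposited table, 0 members were higher and 2 were lower, Trp53inp1 and Phlda3, and the likelihood ratio test of edgeR also called 0. The median of the members was -0.46, against 0.04 for all genes, with 3 members above 0 and 7 below. Scaling by library totals moved all log2 fold changes of this pair by 0.65 and the members' median to 0.19, and Cdkn1b was then called higher, at 1.23, while Mdm2 (0.59), Bax (0.14) and Gadd45a (0.24) turned positive. In this pair 13 of 14 acinar, 6 of 8 duct and 7 of 10 stellate and fibroblast markers were called lower. So were 4 of 8 lymphocyte, 1 of 9 macrophage and 2 of 10 beta-cell markers, the last being Ins1 and Ins2. Of 8 endothelial markers 1 was called higher, and of 5 alpha and delta cell ones 0 were called. The part of these markers was not tested.

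HFD_CGP vs ND compares inhibitor-treated high-fat islets with the ND library and shares its ND library with the diet comparison and its HFD_CGP library with the inhibitor comparison. Cdkn1a, Phlda3 and Bbc3 rose and Trp53inp1 fell, against 4.57% of all genes called higher and 4.36% lower (6.35% and 6.11% of those whose higher library held 100 or more normalized counts). The median of the members was -0.21, against -0.06 for all genes. In the tenth of genes highest in GC content 24.8% were called higher, in that of Cdkn1a 9.67%, and in that of Trp53inp1 23.5% were called lower. After the GC correction 1 member was called higher, Cdkn1a, and 1 lower, Cdkn2a. With a coefficient of variation of 0.4, 0 members were called. The share of all genes called was not computed for either setting. Among markers, 13 of 14 acinar, 1 of 8 duct and 1 of 8 lymphocyte ones were called lower. Called higher were 8 of 10 stellate and fibroblast, 5 of 8 endothelial and 1 of 9 macrophage ones. Of 10 beta-cell markers 1 was called higher and 2 lower, and of 5 alpha and delta cell ones 0 were called. The part of these markers was not tested.

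**Figure D2:**
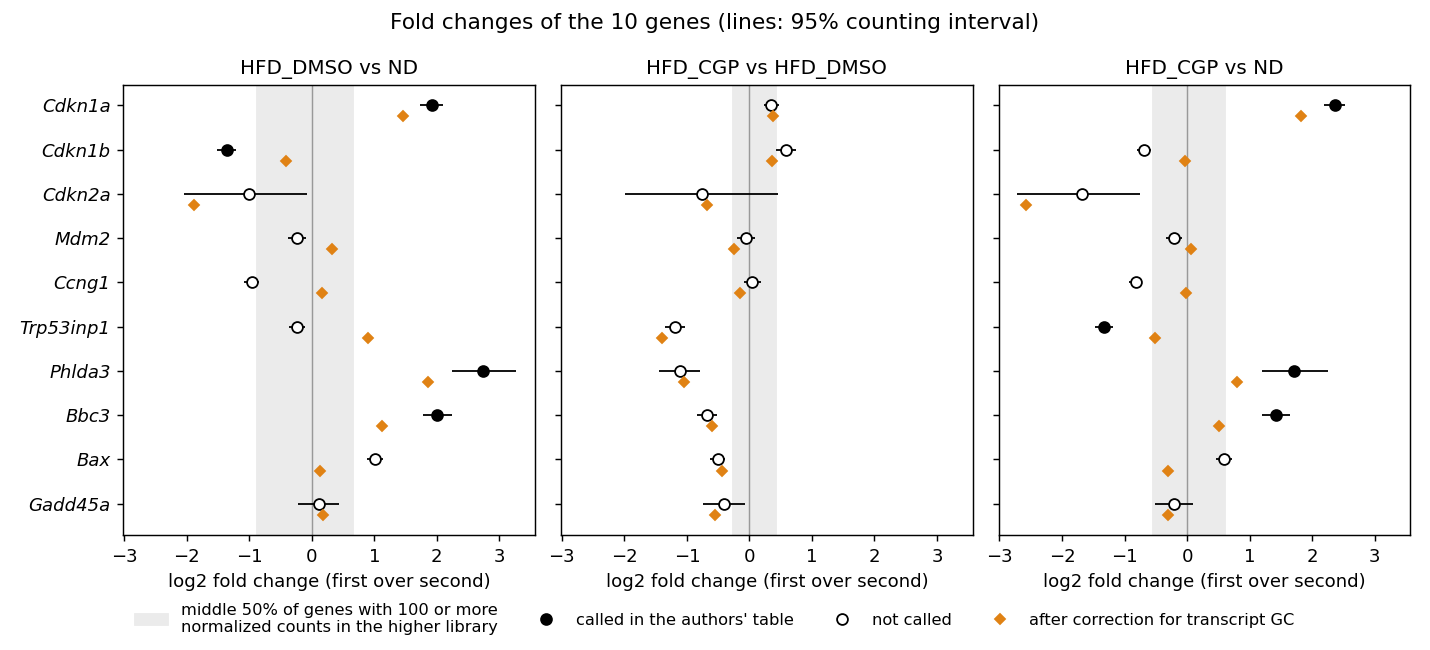
Log2 fold changes of the 10 genes (first over second library) in the 3 comparisons; circles are filled where the authors' deposited table called the gene, lines are 95% counting intervals, diamonds are the values after the GC correction, and the grey band holds the middle 50% of genes whose higher library held 100 or more normalized counts. Cdkn1a lies to the right in both comparisons with ND before (1.92 and 2.36) and after (1.47 and 1.81) the correction, and no circle is filled in HFD_CGP vs HFD_DMSO.

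The members' fold changes against ND ran with their transcript GC content. Trp53inp1 (38.8%), Ccng1 (40.8%) and Cdkn1b (43.1%), the members lowest in GC, all had negative values against ND in both pairs. Of the 5 members highest in GC, Cdkn1a (54.4%), Phlda3 (62.6%), Bax (63.5%) and Bbc3 (65.2%) had positive ones and Cdkn2a (60.2%) negative ones. The Spearman correlation between GC content and log2 fold change over the 10 members was 0.64 in HFD_DMSO vs ND and 0.59 in HFD_CGP vs ND, next to 0.59 and 0.69 over 11253 and 11387 genes. Over the members it was -0.26 in HFD_CGP vs HFD_DMSO. These describe genes of the same libraries, which are not independent replicates.

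**Figure D3:**
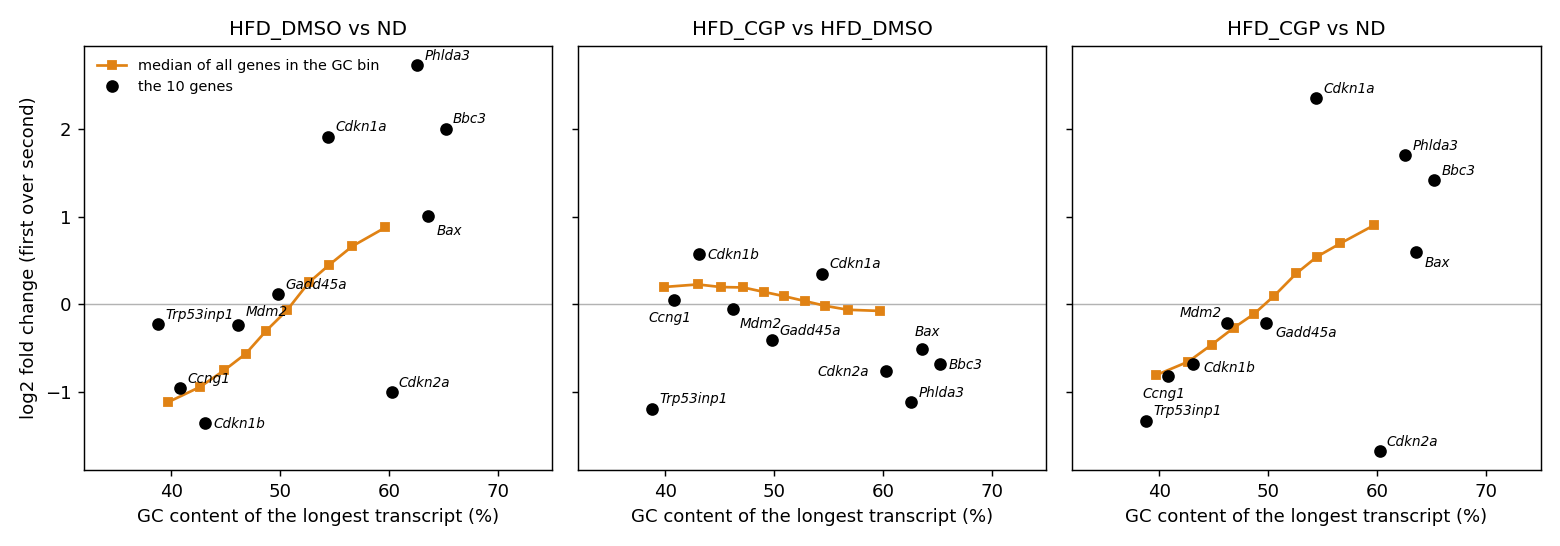
Log2 fold change of the 10 genes (dots) against the GC content of their longest transcript (percent), with the median of the genes whose higher library held 100 or more normalized counts in 10 equal GC bins (squares, at the median GC of each bin). Against ND the line climbs to 0.88 (HFD_DMSO) and 0.90 (HFD_CGP) in the highest bin, and Cdkn1a, Phlda3 and Bbc3 lie above it, while Cdkn2a lies below it.

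Among p53 and 11 of its regulators, Atm, the kinase that signals DNA breaks to p53, had the largest differences. It had 229 reads in HFD_CGP, 70 in HFD_DMSO and 1439 in ND, and fell in both high-fat libraries against ND, with log2 fold changes of -2.72 (-2.92 to -2.51) in HFD_CGP and -3.75 (-4.12 to -3.40) in HFD_DMSO. It was still called lower after the GC correction, at -2.06 in HFD_CGP and -2.80 in HFD_DMSO. The p53 gene itself, Trp53, had levels of 30.5, 18.9 and 15.6 in HFD_CGP, HFD_DMSO and ND, and did not pass in any pair, with 0.97 (0.77 to 1.18) in HFD_CGP over ND as its largest value, or 0.62 after the GC correction. Of the 12 genes, Atm, Atr and Mdm4 fell in HFD_DMSO against ND and Chek2 rose on 29 and 12 reads. In that pair 13.2% of all genes were called lower and 12.6% higher. The p53 inhibitor Mdm4 stood at -1.04, and at -0.10 after the GC correction, under which neither it nor Atr was called. In HFD_CGP against ND, Atm, Atr and Hipk2 fell and 0 rose, with Atm and Hipk2 still called after the GC correction, and 0 passed in HFD_CGP vs HFD_DMSO. Of all genes, 4.36% were called lower and 4.57% higher in HFD_CGP vs ND, and 4.95% and 1.4% in HFD_CGP vs HFD_DMSO. The GC correction also gave 1 higher call in HFD_CGP vs ND and 1 lower call in HFD_CGP vs HFD_DMSO. The list median was -0.43 in HFD_DMSO vs ND (-0.03 after the GC correction, -0.97 under library totals), -0.27 in HFD_CGP vs ND (-0.07 and -0.25) and 0.29 in HFD_CGP vs HFD_DMSO (0.14 and 0.94).

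Of 30 other p53 targets, 7 rose and 1 fell in HFD_DMSO against ND, where 12.6% of all genes were called higher and 13.2% lower. After the GC correction 8 targets were called higher and 1 lower, a setting for which the share of all genes was not computed. The median log2 fold change was 0.62, or 0.30 after the GC correction and 0.086 under scaling by library totals. Those that rose included the mitochondrial reductase Fdxr, with 627 reads in HFD_DMSO and 213 in ND (2.17, interval 1.94 to 2.40), Psrc1, with 85 and 15 reads (3.10, 2.31 to 4.01), and the transcription factor Klf4 (1.42, 1.24 to 1.59). Rrm2b, a subunit of the enzyme that makes deoxynucleotides, fell (-2.43, -2.69 to -2.18). After the GC correction Fdxr, Psrc1 and Rrm2b were still called and Klf4 was not. In HFD_CGP against HFD_DMSO, 0 rose and Psrc1, Gtse1 and Dcxr fell, with a median of -0.18 that was 0.47 under scaling by library totals. In this pair 1.4% of all genes were called higher and 4.95% lower, and 4 targets were called lower after the GC correction. Psrc1 had 13 reads in HFD_CGP and stood at -3.46 (-4.44 to -2.62). In HFD_CGP against ND, Fdxr (1.56) and the stress sensor Sesn2 (1.23) rose and Rrm2b (-1.63) fell, with a median of 0.03, and none of these 3 was called after the GC correction. After it 1 other target was called lower. The deposited calls of this pair took 4.57% of all genes higher and 4.36% lower.

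Of the 6 paralogs of members, 5 of them measured in HFD_DMSO vs ND, Phlda1, Gadd45g and Gadd45b rose in both high-fat libraries against ND and 0 fell. Of all genes, 12.6% were called higher in HFD_DMSO vs ND and 4.57% in HFD_CGP vs ND, and 4.95% lower in HFD_CGP vs HFD_DMSO. Gadd45g, a stress gene of the Gadd45 family, had levels of 188.0 in HFD_CGP, 257.8 in HFD_DMSO and 55.3 in ND, with log2 fold changes against ND of 1.77 (1.67 to 1.86) in HFD_CGP and 2.22 (2.12 to 2.32) in HFD_DMSO. Gadd45a itself did not pass. Phlda1 rose in HFD_DMSO against ND (2.72, 2.31 to 3.15) and fell in HFD_CGP against HFD_DMSO (-1.37, -1.66 to -1.09). After the GC correction Phlda1 and Gadd45g were called in HFD_DMSO vs ND, and 0 of the paralogs in HFD_CGP vs ND.

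In the cell cycle machinery on which the inhibitors act, calls are read beside the shares of all genes called. These were 12.6% higher and 13.2% lower in HFD_DMSO vs ND, and 4.57% and 4.36% in HFD_CGP vs ND. In HFD_CGP vs HFD_DMSO they were 1.4% and 4.95%. Of 11 cyclins and CDKs, Ccne2 (-2.36) and Ccnd1 (-1.12) fell in HFD_DMSO against ND, neither of them called after the GC correction, and Cdk6 rose on 58 and 29 reads. Ccne2 and Ccnb1 fell in HFD_CGP against ND, and Ccnb1 fell on 6 and 26 reads in HFD_CGP against HFD_DMSO. Of 7 other kinase inhibitors and pocket proteins, Rbl2 (-1.76) and Rb1 (-1.50), which hold back entry into S phase, fell in HFD_DMSO against ND, and Cdkn1c rose on 48 and 25 reads; Rbl2 alone of these was called after the GC correction, and 0 passed in the other pairs. Of 12 other BCL2 family genes, the pore-forming relative Bok rose (1.25) and the survival gene Bcl2l2 fell (-1.18) in HFD_DMSO against ND, of which Bcl2l2 was called after the GC correction, and 0 passed in the other pairs. With the correction 1 of the 12 was called higher and 2 lower in HFD_DMSO vs ND, and 1 lower in HFD_CGP vs ND. Of 10 proliferation genes, Mki67, the Ki-67 marker of dividing cells, had 38 reads in HFD_CGP, 90 in HFD_DMSO and 145 in ND. It fell in HFD_CGP against HFD_DMSO (-2.00, -2.60 to -1.45) and against ND (-1.99, -2.55 to -1.47), and stood at -0.08 in HFD_DMSO over ND. Birc5 fell with it in HFD_CGP against HFD_DMSO, and Top2a in HFD_CGP against ND; in HFD_DMSO against ND Aurka rose and Top2a fell. After the GC correction Mki67 and Top2a in HFD_CGP and Aurka in HFD_DMSO were still called against ND, and Top2a in HFD_DMSO (-0.33) was not. Of the 10, the correction gave 2 called higher and 0 lower in HFD_DMSO vs ND, and 3 lower in HFD_CGP vs HFD_DMSO. Chek2, Gtse1, Cdk6, Ccnb1, Cdkn1c and Birc5 were named after their values were seen, to complete a count.

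**Figure D4:**
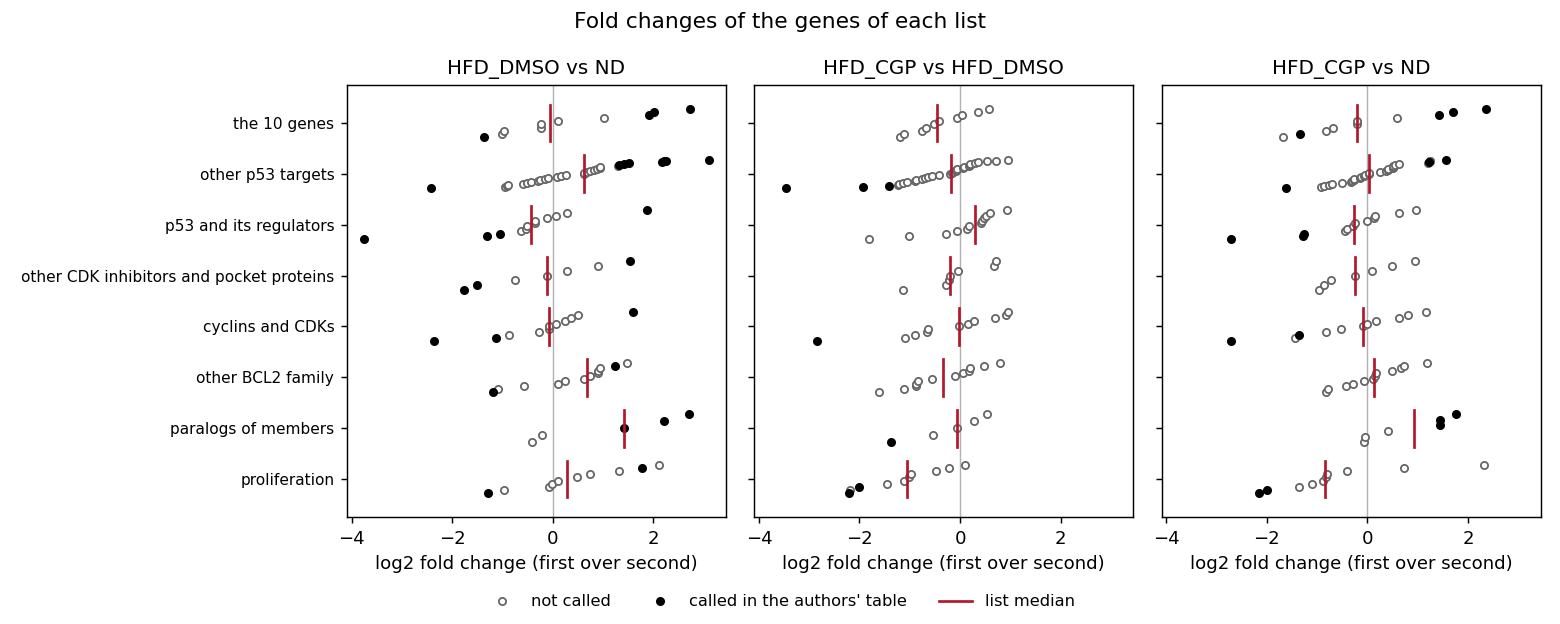
Log2 fold changes (first over second library) of the 10 genes and of the genes of 7 related lists in the 3 comparisons; dots are genes, filled where the authors' deposited table called them, and red lines are list medians. In HFD_DMSO vs ND filled dots lie on both sides of 0 in most lists, and the 10 genes have a median of -0.06.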

How the data were processed

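Libraries were prepared with a TruSeq kit from Trizol-extracted islet RNA, per the labels' protocols. The submitters' processing notes name DESeq2 1.10.1; aligner, counter, strand use and build were not found in the labels or headers. Each pair of groups has a full table in which the authors deposited a signal per library (scaled read counts), a log2 fold change, and p-values before and after adjustment. A blank line per table was skipped. Reads were recovered by dividing the deposited signal by the worth of 1 read, and 99.9% to 99.99% of values lay within 0.1 of a whole number. On them edgeR 4.0.16's exact test (TMM, dispersion fixed at 0.04) differed from the deposited calls for 0 genes and from the deposited log2 fold changes by at most 0.000234; no label or header records this test. Fold changes are recomputed ones, while calls and p-values are the authors'. TMM scaling with the exact test was tested on data simulated at the assumed dispersion of 0.04 and without a GC trend. That simulation did not cover the read recovery, the GC correction or the true spread between mice. Poisson (levels) and Clopper-Pearson (fold changes) intervals cover counting error only. A count of 0 allows 3 reads, or 0.17 to 0.184 per 1000000 of the read total, which is not the effective library used for levels. Of 24119 gene IDs, 24079 were in GENCODE M21 (GRCm38), 95.3% of them at the same coordinates. GC content is that of the longest transcript there, in 10 bins, and GC-corrected calls are from edgeR's likelihood ratio test with bin medians as offsets. The members and lists were chosen with earlier results of these data known. Named were all members, Trp53, Mdm4, Mki67 and, per list and comparison, up to 4 called genes by fold change whose higher library reached 100 normalized counts. Alternatives were other scalings, filters, pseudocount, assumed spread and GC correction.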

Additional observations from a re-analysis of the deposited data

How the results depend on the processing

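With DESeq2 size factors or no filter on low counts, none of the 30 log2 fold changes of members (10 genes in 3 comparisons) changed its sign or its call, and with a pseudocount of 10 none changed its sign. With a coefficient of variation of 0.4 there were 0 members higher and 0 lower in HFD_DMSO vs ND and in HFD_CGP vs ND. With 0.1 there were 4 higher and 2 lower in HFD_DMSO vs ND, 1 higher and 3 lower in HFD_CGP vs HFD_DMSO and 4 higher and 4 lower in HFD_CGP vs ND. The share of all genes called was not computed for these settings or for those below. Such counts therefore cannot be set against all genes. Library totals gave 3 lower in HFD_DMSO vs ND with a median of -0.60, and 1 higher in HFD_CGP vs HFD_DMSO with a median of 0.19; this scaling moved all genes by -0.54 and 0.65. It turned the sign of Gadd45a in HFD_DMSO vs ND (-0.42) and of Mdm2 (0.59), Bax (0.14) and Gadd45a (0.24) in HFD_CGP vs HFD_DMSO, and totals without Ins1 and Ins2 turned Mdm2 there (0.076). The GC correction gave a median of 0.25 in HFD_DMSO vs ND, 1 lower in HFD_CGP vs HFD_DMSO (Trp53inp1) and 1 higher in HFD_CGP vs ND. It turned Mdm2 (0.33), Trp53inp1 (0.89) and Ccng1 (0.16) in HFD_DMSO vs ND, Ccng1 in HFD_CGP vs HFD_DMSO (-0.15), and Mdm2 (0.061) and Bax (-0.31) in HFD_CGP vs ND. In HFD_DMSO vs ND it left Cdkn1a, Phlda3 and Bbc3 called higher, and Cdkn2a in place of Cdkn1b called lower. The likelihood ratio test without the correction, chosen after seeing the data, gave 2 lower in HFD_CGP vs ND, Cdkn2a besides Trp53inp1. For the other changes the cause was not tested. Depth limits Cdkn2a, at 13 to 40 reads. No paired analysis was possible because each group has 1 library, which also leaves no replicate to leave out.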
